A study of Mus musculus with 6 samples.

Results

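Rab GTPases and their regulators were followed in natural killer (NK) cells of the mouse spleen. The genes taken are those whose mouse symbol begins with Rab and a digit, or with Rabgap, Rabgef, Rabep, Rabggt or Tbc1d, among the 8520 genes of the deposited table. The symbols matched 72 genes, 1 of which was set aside and is not analysed here, leaving 71: 34 Rab GTPases and 37 other genes, mostly regulators and effectors. Because the choice used names alone, it took in Rab10os, a noncoding RNA gene antisense to Rab10, and Rab5if, which encodes no GTPase. RefSeq names 106 protein-coding genes by the same prefixes, and 70 of them are in the table; the other 36 are not analysed here.

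Rab proteins are small GTPases that mark the membranes of a cell and steer vesicles between them. A Rab is loaded with GTP by an exchange factor, recruits effectors such as tethers and motors while in that state, and is switched off by a GTPase-activating protein, most of which carry a TBC domain. A geranylgeranyl transferase attaches the lipid that holds a Rab on its membrane. In NK cells this machinery moves and recycles surface receptors and brings secretory lysosomes to the synapse with a target cell.

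RNA was sequenced from NK cells enriched and sorted from spleen cells of C57BL/6Ncr mice, 20 in number, aged 6 to 8 weeks and given no treatment. One population, called Ly49G+ here, was CD3-negative, NK1.1-positive, Ly49G-positive and Ly49C/I-negative, and the other, called Ly49I+, was CD3-negative, NK1.1-positive, Ly49G-negative and Ly49C/I-positive, with 3 libraries each. Ly49G and Ly49I are inhibitory receptors for MHC class I, and the comparison asks how transcription differs between cells that carry the one or the other. The labels call the libraries biological replicates without saying how the mice were divided, so each p-value speaks of library-to-library spread. Totals ran from 33599679 to 40892154 reads. Each Rab gene had at least 298 reads in every library, with a median of 1653.5. Of the sorted receptors, Klra7 (Ly49G) and Klra9 (Ly49I) followed the labels, with log2 differences of Ly49G+ minus Ly49I+ of 6.44 and -3.77. Klra3 (Ly49C) did not, with a log2 difference of 0.30 (adjusted p in limma 0.0604). Its level in every Ly49G+ library was above that in every Ly49I+ library. All 12 NK cell markers examined were present, with summed levels of 15562 to 15757 counts per 1000000 reads (CPM) in Ly49G+ and 16284 to 16965 in Ly49I+ libraries, of which Gzma was the largest share. In limma 4 of the 12 passed: the granule genes Gzmb (log2 difference -0.47, adjusted p 0.00585) and Prf1 (-0.49, 0.0253) and the transcription factor gene Tbx21 (-0.42, 0.0441) were higher in Ly49I+, and Eomes (0.39, 0.00893), another transcription factor gene, was higher in Ly49G+. In RNA from bulk populations, fewer cells of a type and less RNA per cell cannot be told apart.

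Rab RNA differed little between the populations. None of the 71 genes passed an adjusted p of 0.05 in limma over all 8520 genes (0 higher in either population), where 3.59% of all genes passed. At an unadjusted p below 0.05 there were 16 of the 71 genes (22.5%), beside 19.8% of all genes. The largest difference was 1.42-fold, in Rab3d, and 55 genes differed by less than 1.2-fold. The 95% interval lay within 1.5-fold in both directions for 59 of the 71 genes, which bounds what these libraries allow for them. The counts by fold were not made over all genes, so they do not show that Rab genes differed less than others. The median log2 difference of Ly49G+ minus Ly49I+ was -0.04, beside -0.02 over all genes, and 41 of 71 differences were negative (57.7%, against 53.5% of all genes). The summed level of the 34 GTPases was 2772 to 2837 CPM in Ly49G+ and 2843 to 2890 CPM in Ly49I+ libraries. Within a population the median gene varied by 7.4% (Ly49G+) and 8.0% (Ly49I+) of its mean (SD over 3 libraries).

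**Figure D1:**
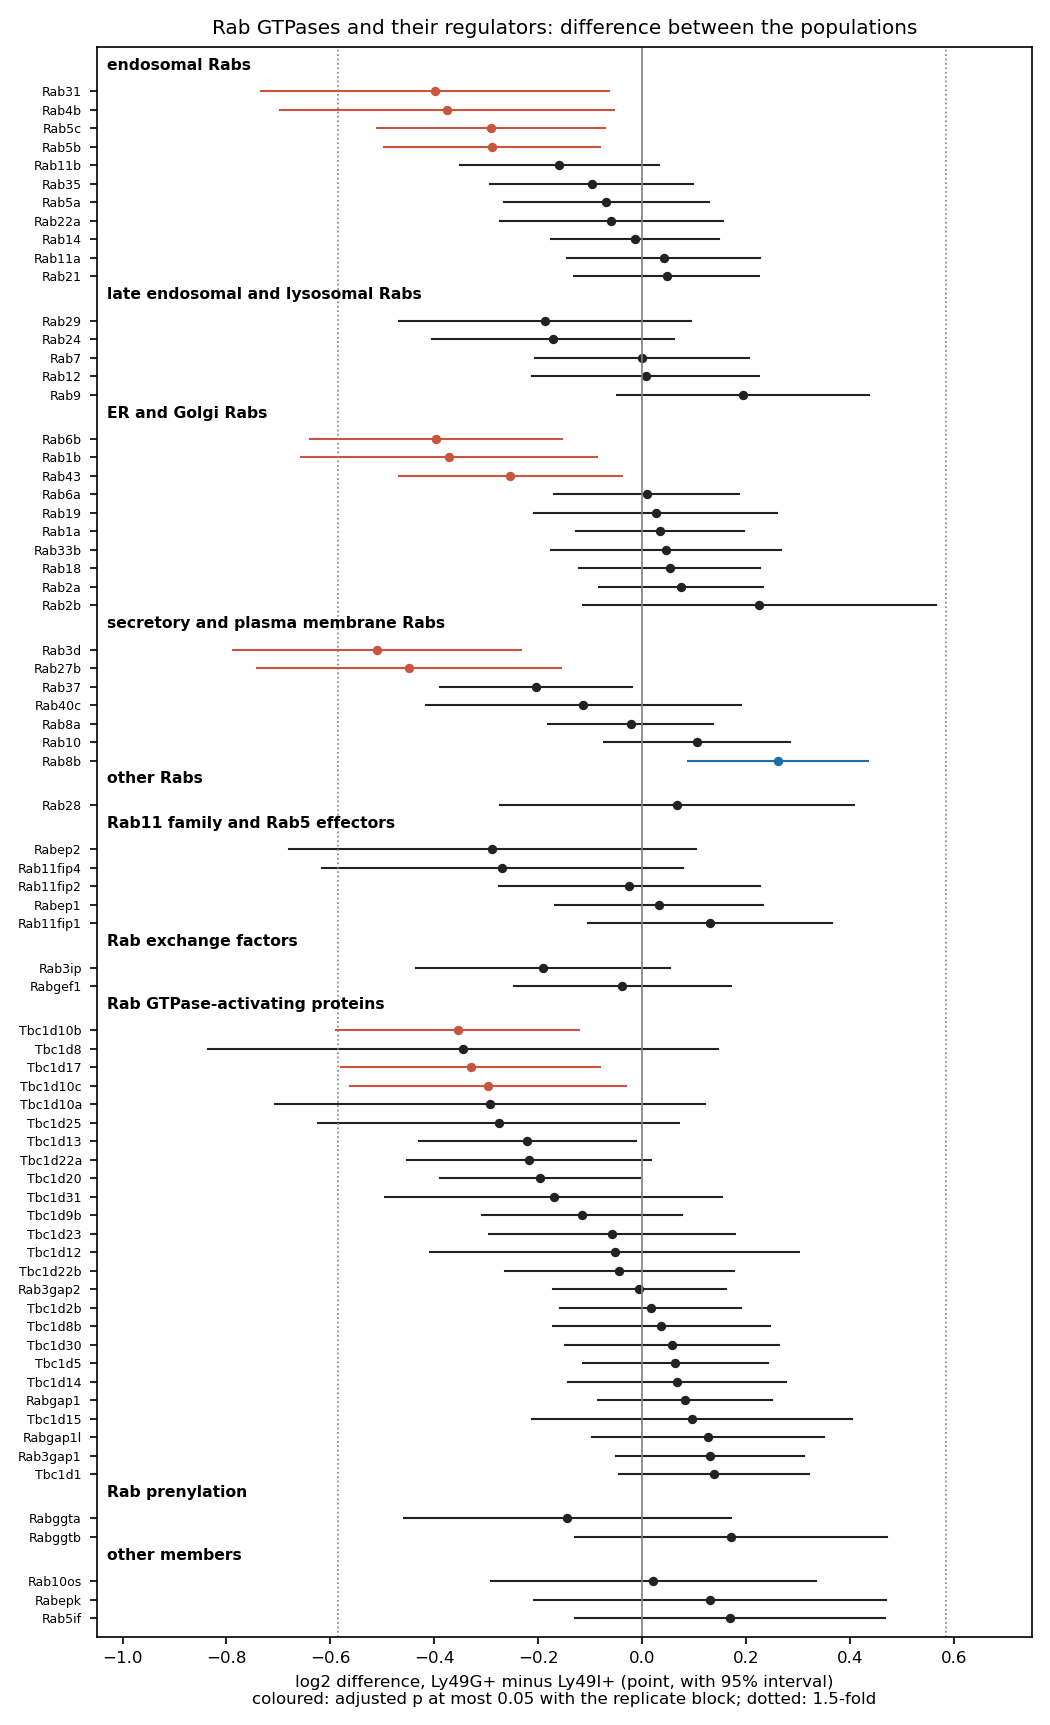
Log2 difference of Ly49G+ minus Ly49I+ for all 71 Rab genes, grouped by role, as points with 95% intervals from limma (3 libraries per population). Dotted lines mark a 1.5-fold difference, and coloured genes had an adjusted p of at most 0.05 with the replicate block; the points run from -0.51 for Rab3d to 0.26 for Rab8b.

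The labels do not state that same-numbered libraries are paired, and the data do not establish it. When the replicate number was added to the model as a block, 13 of the 71 genes passed (18.3%), beside 11.7% of all genes. Of these, 12 were higher in Ly49I+ (16.9%, against 5.96% of all genes) and 1, Rab8b, was higher in Ly49G+ (1.41%, against 5.69%). The libraries of the populations did not overlap for 14 Rab genes higher in Ly49I+ (19.7%, against 13.4% of all genes) and for 2, Rab8b and Rab9, higher in Ly49G+ (2.82%, against 12.5%). With weights per library 13 genes passed (14.8% of all genes did). The weights were 0.494, 3.858 and 0.449 for Ly49I+ replicates 1, 2 and 3, so the Ly49I+ level there rested mostly on replicate 2. These were not the 13 of the block. Tbc1d8 (adjusted p in limma 0.029) and Tbc1d13 (0.027) passed, and Tbc1d10c (0.155) and Rab4b (0.0564) did not. Without Ly49I+ replicate 1 there were 7 (7.56% of all genes passed). With limma's robust prior there was 1, Rab3d (adjusted p = 0.0489), where 3.85% of all genes passed. The 7 without Ly49I+ replicate 1 were Rab1b, Rab3d, Rab5b, Rab5c, Rab8b, Tbc1d10b and Tbc1d17. Values given in groups of 3 are in the order of replicates 1, 2 and 3. The genes that passed with the block are described by role, each with its adjusted p in limma without and then with the block. The lowest and highest adjusted p over the settings other than these follow as a range.

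Promoter windows of 4 of these genes are shown first, because among the genes that passed with the block they had the smallest p without it, with Rab27b and windows that hold 30 or more bases of an annotated transcript of the gene left out. The Rab3d and Rab5b windows still reach a short way into the gene as annotated, since the start used lies inside it. Rab3d, Tbc1d10b and Rab5b were higher in Ly49I+, and Rab8b went the other way. Each is the 250 bases before a RefSeq transcript start on GRCm38.p6, printed 5′ to 3′ on the minus strand, on which all 4 genes lie. They span chr9:21918184-21918433 (Rab3d), chr7:127208469-127208718 (Tbc1d10b), chr10:128696269-128696518 (Rab5b) and chr9:66919706-66919955 (Rab8b). Capitals mark the GC box, GGGCGG or its reverse complement.
Rab3d: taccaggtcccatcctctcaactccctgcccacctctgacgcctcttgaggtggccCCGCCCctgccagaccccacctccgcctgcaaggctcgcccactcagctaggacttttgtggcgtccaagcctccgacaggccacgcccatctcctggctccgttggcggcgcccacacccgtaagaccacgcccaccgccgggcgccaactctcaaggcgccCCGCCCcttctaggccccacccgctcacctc
Tbc1d10b: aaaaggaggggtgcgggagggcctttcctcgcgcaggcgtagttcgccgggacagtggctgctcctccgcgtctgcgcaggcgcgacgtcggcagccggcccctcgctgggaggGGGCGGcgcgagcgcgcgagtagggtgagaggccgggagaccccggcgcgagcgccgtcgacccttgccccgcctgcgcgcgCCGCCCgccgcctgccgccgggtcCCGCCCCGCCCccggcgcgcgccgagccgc
Rab5b: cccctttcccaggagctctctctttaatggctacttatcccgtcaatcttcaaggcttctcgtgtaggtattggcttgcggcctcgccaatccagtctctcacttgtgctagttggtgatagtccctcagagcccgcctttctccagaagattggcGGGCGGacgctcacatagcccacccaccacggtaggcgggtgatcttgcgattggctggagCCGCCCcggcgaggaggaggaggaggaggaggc
Rab8b: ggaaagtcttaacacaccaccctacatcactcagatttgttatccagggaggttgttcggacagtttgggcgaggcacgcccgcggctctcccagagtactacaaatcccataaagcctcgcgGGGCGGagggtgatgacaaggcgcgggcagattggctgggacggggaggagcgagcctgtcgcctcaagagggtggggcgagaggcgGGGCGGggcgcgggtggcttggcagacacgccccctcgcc

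The Rab3d, Rab5b and Rab8b windows each held 2 GC boxes and the Tbc1d10b window held 4. GC made up 69.2%, 80.4%, 59.2% and 64.4% of the bases in Rab3d, Tbc1d10b, Rab5b and Rab8b. Searching both strands, the GC box was in 54 of 78 windows of Rab genes (69.2%, 60 genes with a window), in 59.1% of 8741 windows of genes in the table and in 32.7% of all 32851 RefSeq windows of this length. Over the genes higher in Ly49I+ with the block it was in 11 of 12 windows, from 9 genes. The E-box CACGTG was in 9.0% of Rab windows and 8.7% of windows of genes in the table, the ETS core CCGGAAG in 15.4% and 15.9%, the T-box core GGTGTGA in 3.8% and 2.6%, and the TATA box TATAAA in 2.6% and 6.1%. None of these 4 was in the windows shown. These are letter matches and say nothing of binding.

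Rabs of secretory vesicles and the plasma membrane held the largest differences in both directions. Rab3d, which sits on secretory granules of exocrine and mast cells (gene 19340, GRCm38.p6 chromosome 9, 21907491 to 21918199), stood at 18.3, 21.6 and 19.5 CPM in Ly49G+ and at 24.2, 29.4 and 31.4 CPM in Ly49I+. Every Ly49I+ library was above every Ly49G+ library. The log2 difference was -0.51 ± 0.12 (SE; adjusted p in limma 0.0527, and 0.00968 with the block), and over the other settings the adjusted p ran from 0.00489 to 0.183. Rab27b, known from regulated secretion in platelets and mast cells (gene 80718, chromosome 18, 69979131 to 70141633), stood at 17.4, 21.2 and 20.3 CPM in Ly49G+ and at 25.0, 31.4 and 24.3 CPM in Ly49I+ libraries. The populations did not overlap, and Ly49I+ replicate 2 was the highest. Its log2 difference was -0.45 ± 0.13 (adjusted p in limma 0.0965, and 0.0205 with the block; range over settings 0.00558 to 0.288).

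Rab8b went the other way. It carries cargo from the Golgi and recycling endosomes to the cell surface (gene 235442, chromosome 9, 66843609 to 66919705). Its levels were 449.7, 454.9 and 416.1 CPM in Ly49G+ and 399.2, 358.8 and 345.2 CPM in Ly49I+, so the highest Ly49I+ library lay below the lowest Ly49G+ library. The log2 difference was 0.26 ± 0.08 (adjusted p in limma 0.101, and 0.0200 with the block; range over settings 0.0115 to 0.363). Its close relative Rab8a was level, at 254 ± 9.81 CPM in Ly49G+ and 258 ± 13.0 CPM in Ly49I+ (SD, n = 3 each), with a 95% interval of the log2 difference from -0.18 to 0.14. Rab10, a Rab of exocytosis related to Rab8 (log2 difference 0.11 ± 0.08), Rab37, a Rab of secretory granules (-0.20 ± 0.08), and Rab40c (-0.11 ± 0.14) did not pass with or without the block. The 3 Rab37 libraries of Ly49I+ all lay above those of Ly49G+, and with Tbc1d13 and Tbc1d20 it makes up the genes that had an unadjusted p below 0.05 but did not pass with the block. Rab28, a Rab of cilia placed in no group of traffic here, had a log2 difference of 0.07 ± 0.15.

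**Figure D2:**
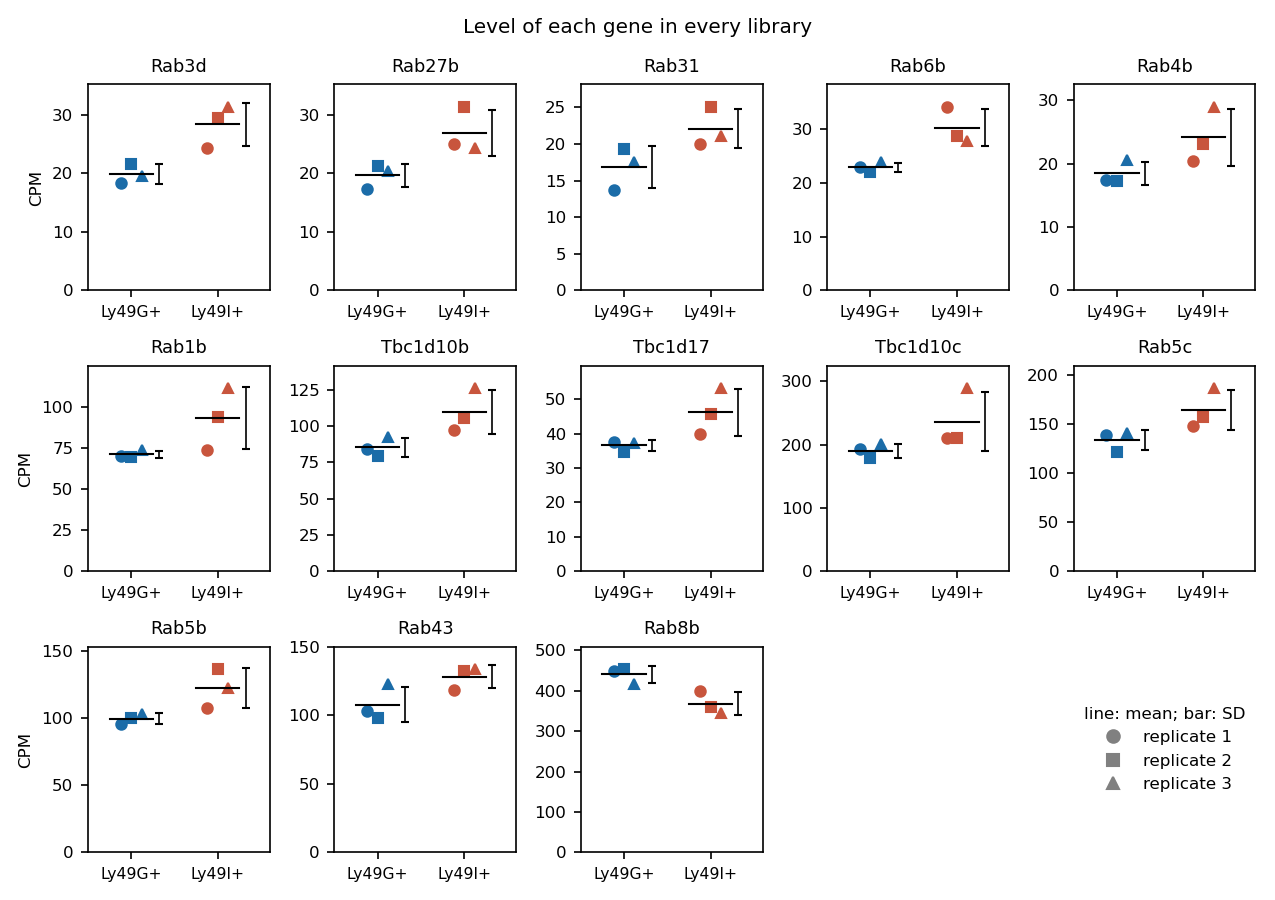
CPM in each of the 6 libraries for the 13 Rab genes with an adjusted p of at most 0.05 in limma with the replicate block (marker shape: replicate; line: mean of 3 libraries; bar: SD). In 11 of the 13 genes the populations do not overlap. The genes were chosen by p in these same libraries, so this lends no further support. Over all genes 13.4% did not overlap with Ly49I+ higher and 12.5% with Ly49G+ higher. Of the 12 genes higher in Ly49I+ the top Ly49I+ library is replicate 3 in 8, a count not made over all genes.

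Among Rabs of early and recycling endosomes 4 of 11 passed with the block (11.7% of all genes did), all higher in Ly49I+ (against 5.96%). Rab5b and Rab5c, which drive fusion of early endosomes, did so together. Rab5b (gene 19344, chromosome 10, 128677170 to 128696284) stood at 95.6, 101 and 104 CPM in Ly49G+ and at 108, 137 and 123 CPM in Ly49I+, with a log2 difference of -0.29 ± 0.09 (adjusted p in limma 0.126, and 0.0260 with the block; range over settings 0.00672 to 0.354). Rab5c (gene 19345, chromosome 11, 100715003 to 100738215) stood at 139, 122 and 140 CPM in Ly49G+ and at 148, 157 and 187 CPM in Ly49I+, with a log2 difference of -0.29 ± 0.10 (adjusted p in limma 0.146, and 0.0267 with the block; range over settings 0.0416 to 0.470). In both genes the populations were separated by a narrow gap. The third isoform, Rab5a, had overlapping populations and a log2 difference of -0.07 ± 0.09.

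Rab31, which works between the Golgi and endosomes, stood at 13.7, 19.4 and 17.5 CPM in Ly49G+ and at 20.1, 25.1 and 21.1 CPM in Ly49I+ (log2 difference -0.40 ± 0.15; adjusted p in limma 0.187, and 0.0447 with the block; range over settings 0.0223 to 0.439). Replicate 2 was the highest library of each population. Rab4b, a Rab of fast recycling, stood at 17.5, 17.3 and 20.5 CPM in Ly49G+ and at 20.3, 23.0 and 29 CPM in Ly49I+ (-0.38 ± 0.15; adjusted p in limma 0.194, and 0.0484 with the block; range over settings 0.0564 to 0.487), and -0.23 without Ly49I+ replicate 3, the highest library. Here the lowest Ly49I+ library lay just below the highest Ly49G+ library, and no setting other than the block called the gene. The recycling Rabs Rab11a (0.04 ± 0.08) and Rab11b (-0.16 ± 0.09) and Rab14 (-0.01 ± 0.07), Rab21 (0.05 ± 0.08), Rab22a (-0.06 ± 0.10) and Rab35 (-0.10 ± 0.09) gave log2 differences that did not pass in either fit.

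Of 5 Rabs of late endosomes and lysosomes, 0 passed without the block (3.59% of all genes did) or with it (11.7%). Rab7, which governs the step to the lysosome, stood at 114 ± 8.06 CPM in Ly49G+ and 115 ± 12.1 CPM in Ly49I+ (SD, n = 3 each), and its 95% interval of the log2 difference ran from -0.21 to 0.21. Rab9, which returns receptors from late endosomes to the Golgi, had separated populations at 27.3, 32.0 and 27.0 CPM in Ly49G+ and 26.5, 25.7 and 23.1 CPM in Ly49I+, with a log2 difference of 0.19 ± 0.11 (adjusted p in limma 0.338). Rab24 (-0.17 ± 0.11), Rab29 (-0.19 ± 0.13) and Rab12 (0.01 ± 0.10) had log2 differences in the same narrow range. Rab29 was separated the other way, with Ly49I+ higher, but almost without a gap. It stood at 15.4, 13.7 and 13.4 CPM in Ly49G+ and at 15.4, 15.6 and 17.3 CPM in Ly49I+.

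In the early secretory pathway 3 of 10 Rabs passed with the block (11.7% of all genes did), all higher in Ly49I+ (against 5.96%). Rab6b, a Golgi Rab best known from neurons (gene 270192, chromosome 9, 103111667 to 103185276), stood at 22.8, 21.9 and 23.7 CPM in Ly49G+ and at 34.1, 28.6 and 27.8 CPM in Ly49I+. Its populations were clearly apart, and it was the only gene of the 12 whose highest Ly49I+ library was replicate 1. The log2 difference was -0.40 ± 0.11 (adjusted p in limma 0.0802, and 0.0299 with the block; range over settings 0.0229 to 0.288). Rab1b, which acts between the endoplasmic reticulum and Golgi, stood at 70.2, 69.4 and 73.4 CPM in Ly49G+ and at 73.9, 93.9 and 112 CPM in Ly49I+ (-0.37 ± 0.13; adjusted p in limma 0.151, and 0.0222 with the block; range over settings 0.00943 to 0.42). Its Ly49I+ libraries were widely spread, the lowest nearly level with Ly49G+, and without Ly49I+ replicate 3 the log2 difference was -0.23. Rab43, another Golgi Rab, stood at 103, 97.7 and 123 CPM in Ly49G+ and at 118, 132 and 134 CPM in Ly49I+ (-0.25 ± 0.10; adjusted p in limma 0.191, and 0.0479 with the block; range over settings 0.0301 to 0.537), with overlapping populations. Rab1a (0.03 ± 0.07), Rab2a (0.07 ± 0.07), Rab2b (0.23 ± 0.15), Rab6a (0.01 ± 0.08), Rab18 (0.05 ± 0.08), Rab19 (0.03 ± 0.11) and Rab33b (0.05 ± 0.10) had log2 differences that did not pass in either fit.

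The genes grouped as Rab GTPase-activating proteins numbered 25, and 3 of them passed with the block, all higher in Ly49I+ (5.96% of all genes were). Their share was close to the 11.7% of all genes that passed. The grouping went by gene name, so it does not show that each of them switches a Rab off. Tbc1d10c, which encodes the lymphocyte protein carabin, an inhibitor of calcineurin and Ras signalling, stood at 193, 179 and 200 CPM in Ly49G+ and at 210, 210 and 290 CPM in Ly49I+. The log2 difference was -0.30 ± 0.12 (adjusted p in limma 0.214, and 0.0287 with the block; range over settings 0.0741 to 0.537), and -0.14 without Ly49I+ replicate 3, the highest library. No setting other than the block called it. Its relative Tbc1d10b stood at 84.6, 79.3 and 92.4 CPM in Ly49G+ and at 97.2, 106 and 127 CPM in Ly49I+ (-0.36 ± 0.11; adjusted p in limma 0.0985, and 0.00979 with the block; range over settings 0.0196 to 0.370). Tbc1d17 stood at 37.7, 34.6 and 37.3 CPM in Ly49G+ and at 39.8, 45.6 and 53.3 CPM in Ly49I+ (-0.33 ± 0.11; adjusted p in limma 0.145, and 0.0459 with the block; range over settings 0.0249 to 0.429). In all 3 genes the populations were separate and Ly49I+ replicate 3 was the highest.

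The third relative, Tbc1d10a, had a log2 difference of -0.29 ± 0.19 that did not pass in either fit and was -0.12 without Ly49I+ replicate 3. Tbc1d8 stood at 10.4, 11.3 and 9.85 CPM in Ly49G+ and at 11.1, 19.6 and 10.9 CPM in Ly49I+. The higher Ly49I+ mean rested on replicate 2: the log2 difference was -0.35 ± 0.22, and -0.07 without that library (adjusted p in limma 0.396, and 0.882 without it; range over settings 0.029 to 0.882). The subunits of the complex that inactivates Rab3, Rab3gap1 (0.13 ± 0.08) and Rab3gap2 (-0.01 ± 0.08), and Rabgap1 (0.08 ± 0.08), Rabgap1l (0.13 ± 0.10), Tbc1d1 (0.14 ± 0.08), Tbc1d2b (0.02 ± 0.08), Tbc1d8b (0.04 ± 0.09), Tbc1d9b (-0.12 ± 0.09), Tbc1d22a (-0.22 ± 0.11) and Tbc1d22b (-0.04 ± 0.10) did not pass in either fit. The other 10 genes of this role ranged from -0.28 (Tbc1d25) to 0.10 (Tbc1d15), with Tbc1d13 at -0.22 ± 0.09 and Tbc1d20 at -0.20 ± 0.09.

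Effectors, exchange factors and the prenylation enzyme did not pass either. Rabep1, the Rab5 effector rabaptin-5, stood at 116 ± 6.38 CPM in Ly49G+ and 114 ± 12.1 CPM in Ly49I+ (SD, n = 3 each), and Rabep2 at 33.7 ± 4.83 and 41.9 ± 11.8 CPM. The higher Ly49I+ mean of Rabep2 rested on replicate 3, at 55.6 CPM against 34.9 and 35.3 CPM in replicates 1 and 2, and the log2 difference of -0.29 was -0.07 without it. The Rab11 effectors Rab11fip1, Rab11fip2 and Rab11fip4 had log2 differences of 0.13 ± 0.11, -0.02 ± 0.11 and -0.27 ± 0.16, and that of Rab11fip4 was -0.12 without Ly49I+ replicate 3 and -0.41 without Ly49I+ replicate 2. Rabgef1, the Rab5 exchange factor, differed by -0.04 ± 0.09, and Rab3ip, an exchange factor for Rab8, by -0.19 ± 0.11. The transferase subunits Rabggta (-0.14 ± 0.14) and Rabggtb (0.17 ± 0.14) had overlapping populations. Rabepk, Rab5if and Rab10os had log2 differences from 0.02 to 0.17. The library kit keeps strand, but whether the reads were counted by strand was not stated, so Rab10os and Rab10 are uncertain as separate values.

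Levels can be compared between genes per kilobase of merged exon length, which was available for all 71 genes. By the mean over 6 libraries, Tbc1d10c was highest at 107 CPM per kilobase, followed by Rab8b at 85.4, Rab5c at 75.6, Rab10 at 70.5, Rab2a at 60.3 and Rab8a at 56.3. Rab7 stood at 43.9, Rab1a at 42.4 and Rab14 at 38.7 CPM per kilobase. The prenylation enzyme genes Rabggtb and Rabggta stood at 15.1 and 10.1 CPM per kilobase. The median was 20.1 CPM per kilobase for the GTPases and 11.8 for the other 37 genes, beside 15.0 over all genes in the table. Tbc1d8 was lowest at 2.50 CPM per kilobase. Rab27b at 3.09 and Rab3d at 6.08, which had the largest relative differences among secretory Rabs, were both genes of low level.

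**Figure D3:**
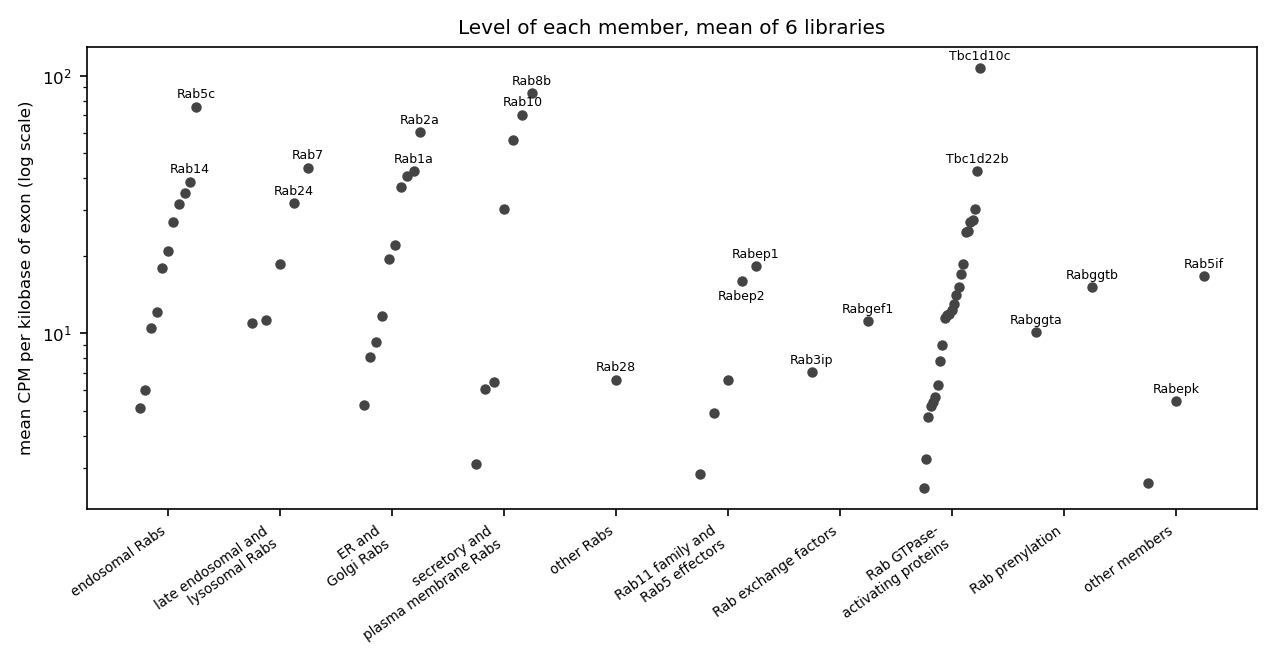
Mean level of each of the 71 Rab genes over the 6 libraries, in CPM per kilobase of exon on a log scale, by role. The values run from 2.50 (Tbc1d8) to 107 (Tbc1d10c), and Rab8b, Rab5c and Rab10 are the highest GTPases.

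The balance between related genes was compared as the log2 ratio of their CPM in each library, over 17 pairs. In 5 pairs the ratio did not overlap between populations. Their exact two-sided permutation p was 0.1, the smallest that 3 against 3 libraries allow, with an adjusted p over the 17 pairs of 0.34. Ratios of other genes were not examined. Of single genes over the table, 13.4% did not overlap with Ly49I+ higher and 12.5% with Ly49G+ higher. The count of 5 is therefore not read as a shift in balance, and the ratios are given as a description. The Rab8a to Rab8b ratio was -0.79, -0.81 and -0.78 in Ly49G+ and -0.59, -0.56 and -0.37 in Ly49I+. The Rab6a to Rab6b ratio was 2.43, 2.56 and 2.45 in Ly49G+ and 1.95, 2.22 and 2.05 in Ly49I+. The Rab1a to Rab1b ratio was 0.81, 0.77 and 0.75 in Ly49G+ and 0.69, 0.40 and 0.01 in Ly49I+, so the isoforms were level in Ly49I+ replicate 3. Rab11a to Rab11b and Rab3gap1 to Rab3gap2 were the other separated pairs. By contrast Rab5b to Rab5c (difference of mean log2 ratios 0.00) and Tbc1d10a to Tbc1d10c (0.00) kept nearly the same mean ratio in both populations. The genes of a pair can differ in GC content, as Rab1a (41.7%) and Rab1b (56.8%) do. With the GC correction described next, the difference of mean log2 ratios went from 0.40 to 0.14 for Rab1a to Rab1b, from -0.28 to -0.14 for Rab8a to Rab8b, and from 0.41 to 0.21 for Rab6a to Rab6b. It went from 0.20 to 0.08 for Rab11a to Rab11b, from 0.14 to 0.08 for Rab3gap1 to Rab3gap2, and from 0.00 to -0.11 for Rab5b to Rab5c.

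The differences moved with the GC content of the transcripts. Over the 71 Rab genes the log2 difference fell as GC rose (Spearman's rho -0.61, Pearson's r -0.59), and over the 8302 genes of the table with a GC value rho was -0.53 and r was -0.32. These are correlations across genes that share the same 6 libraries, and are given as a description. In the quintile of genes with the highest GC (54.9% to 83.3%) the median log2 difference was -0.17 over all genes and -0.28 over the 17 Rab genes there, and in the lowest quintile (34.1% to 44.0%) it was 0.12 over all genes and 0.04 over 14 Rab genes. Of the 13 genes of the block 7 lay in the highest quintile, and the 12 higher in Ly49I+ had a median GC of 55.4%, beside 49.7% for the 58 genes that did not pass. Libraries within a population differed in the same way. In the highest quintile the median deviation from the gene mean was 0.28 on the log2 scale in Ly49I+ replicate 3 and 0.04 in Ly49I+ replicate 2, but -0.09 in Ly49I+ replicate 1. In the Ly49G+ replicates 1, 2 and 3 it was -0.10, -0.13 and -0.00.

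**Figure D4:**
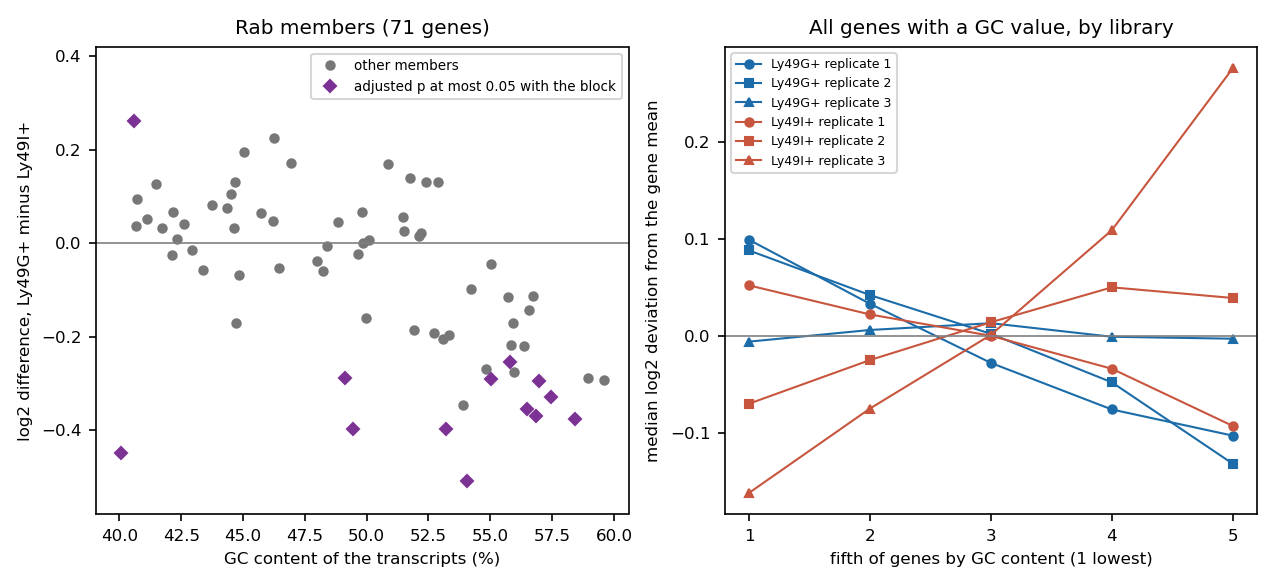
Left, log2 difference of Ly49G+ minus Ly49I+ against transcript GC content for the 71 Rab genes (diamonds: the 13 with an adjusted p of at most 0.05 with the replicate block). Right, median log2 deviation from the gene mean in each library over quintiles of all genes by GC content; Ly49I+ replicate 3 runs from -0.16 to 0.28, and Ly49I+ replicate 1 follows the slope of Ly49G+ replicates 1 and 2.

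After each library was corrected for its trend with GC, an alternative chosen after seeing the data, rho over the Rab genes was -0.17 and 12 of the 13 differences were smaller in size, all with the same sign. In limma on the corrected values 2 Rab genes passed (6.24% of all genes did): Rab27b (log2 difference -0.59 ± 0.14, adjusted p = 0.0258) and Rab3d (-0.41 ± 0.10, adjusted p = 0.0339). With the block as well 3 passed (7.94% of all genes did), namely Rab27b (adjusted p in limma 0.00558), Rab3d (0.0269) and Rab5b (-0.29 ± 0.08 without the block, adjusted p in limma 0.0274 with it). Rab27b, at 40.0% GC, was the 1 gene whose difference grew. The other genes did not pass, Rab8b falling to 0.13 ± 0.05 (adjusted p in limma 0.163, and 0.145 with the block) and Tbc1d10c moving to -0.14 ± 0.07. The log2 difference moved to -0.22 for Rab1b, -0.20 for Rab4b, -0.12 for Rab43, -0.17 for Rab5c, -0.21 for Tbc1d10b and -0.17 for Tbc1d17. Rab31 hardly changed, at -0.39 ± 0.14 (adjusted p in limma 0.119, and 0.0502 with the block). Rab6b moved to -0.31 ± 0.11 (adjusted p in limma 0.141, and 0.0939 with the block). Among genes that passed in neither fit it moved to -0.10 for both Tbc1d10a and Rabep2. The correction also removes any difference between the populations that follows GC, and which of these the GC trend reflects was not tested.

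Genes listed as markers of other cells moved with the populations too. Of 20 monocyte and macrophage markers 13 were in the table and 11 were higher in Ly49I+ in limma (3.59% of all genes passed). The 13 summed to 41.7 to 79.8 CPM in Ly49G+ and 298 to 1324 CPM in Ly49I+ libraries, highest in replicate 2. Of 12 T cell markers 7 were in the table and 5 were higher in Ly49G+ in limma (3.59% of all genes passed). The 7 summed to 364 to 433 CPM in Ly49G+ and 246 to 264 CPM in Ly49I+. Most of that sum was Cd28 (means of 134.5 and 82.6 CPM) and Trbc1 (131.5 and 113 CPM). Cd3e had means of 13.1 and 0.96 CPM, and Trac of 28.2 and 7.57 CPM. The second-highest library of every gene in the table was at 10.01 CPM or more. Treml4 (means of 0.85 CPM in Ly49G+ and 26.4 CPM in Ly49I+) could therefore be in it only through Ly49I+, and Cd3e only through Ly49G+. The direction of such markers was set by that limit, so they add no support to these counts. The 3 B cell markers in the table summed to 307 to 402 CPM in Ly49G+ and 183 to 365 CPM in Ly49I+, mostly Ighm, and 1 of them, Cd22, was higher in Ly49G+ in limma (means of 46.1 and 24.6 CPM, adjusted p = 0.0131). Of the 3 dendritic cell markers 0 passed in limma (1, Itgax, had an unadjusted p below 0.05 and passed with the block), and they did not share a direction. Itgax, which made up most of their sum of 1053 to 1173 CPM in Ly49G+ and 852 to 1028 CPM in Ly49I+, had means of 1080 and 901 CPM, whereas Cd74 had means of 23.9 and 44.2 CPM and H2-Ab1 of 6.55 and 9.66 CPM in Ly49G+ and Ly49I+. None of these measured markers was at 0 reads, and 0 of 8 neutrophil and 0 of 10 erythroid and platelet markers are among the genes analysed. Among the 12 Rab genes higher in Ly49I+ with the block, Rab27b, Rab31 and Rab5b were highest in replicate 2, and without that library their log2 differences were -0.33, -0.30 and -0.20. Tbc1d8 was also highest in that library. Whether the marker RNA came from other cells or from the NK cells was not tested. The part of other cells in the Rab differences was not tested either.

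Outside the named family, 75 of 99 listed genes of the Rab cycle were in the table, and in limma 3 passed, Dennd2d towards Ly49G+ and both Dennd5a and Myo5a towards Ly49I+, beside 3.59% of all genes. With the block 8 passed (11.7% of all genes did), 7 of them higher in Ly49I+ (5.96% of all genes were). With the block and the GC correction 5 passed (7.94% of all genes did), 4 of them higher in Ly49I+. Dennd5a, a DENN domain protein of Golgi and endosome traffic (gene 19347, chromosome 7, 109893780 to 109960470), stood at 79.2, 75.2 and 73.9 CPM in Ly49G+ and at 121, 130 and 116 CPM in Ly49I+. The populations were far apart, with a 1.61-fold higher mean in Ly49I+. The log2 difference of -0.69 ± 0.08 (adjusted p in limma 0.00112) kept its call in every setting (4.26e-05 to 0.0169). Myo5a, the actin motor that Rab effectors hold on vesicles (gene 17918, chromosome 9, 75069799 to 75223688), stood at 13.2, 10.8 and 12.5 CPM in Ly49G+ and at 20.8, 24.3 and 18.5 CPM in Ly49I+ (-0.80 ± 0.14, adjusted p in limma 0.0127). It did not pass without Ly49G+ replicate 2 (0.0781) or Ly49I+ replicate 2 (0.0560). Dennd2d, an exchange factor of the same domain family, was higher in Ly49G+, at 79.3, 85.0 and 91.1 CPM against 60.5, 68.9 and 60.6 CPM (0.43 ± 0.09, adjusted p in limma 0.0242), and did not pass without any single Ly49G+ library or without the intensity trend (0.0531 to 0.137). After the GC correction the log2 differences were -0.68, -0.83 and 0.41, and all 3 passed. The 6 genes of Rab GDP dissociation inhibitors and escort proteins did not pass in either fit, nor did the 5 other TBC domain genes.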

How the data were processed

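Gene counts were made by the authors, and the deposited table holds log2 CPM (counts per 1000000 reads) in the form of limma's voom, with 0.5 added to each count and 1 to the library total. Turned back through this formula, 100% of values were whole reads (tolerance 0.01 read). The build mm10 and the tools STAR 2.3.0, CASAVA 1.8.2 and limma are named, per the submitters' processing notes. Which read counter, annotation and filter were used was not stated. The lowest second-highest value of any gene was 10.01 CPM. Per the labels' protocols, libraries were stranded and made from total RNA.

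Gene numbers were matched to RefSeq GRCm38.p6 symbols for 8429 genes and to GENCODE for 1. All genes were fitted in limma 3.58.1 (R 4.3.3) on the deposited log2 values, two-sided, with an intensity trend and Benjamini-Hochberg adjustment, and the steps were checked on simulated data. Python 3.11.15, pandas 2.3.3, scipy 1.17.1 and matplotlib 3.10.9 were used. The fits used the log2 values, and no count test was run on the reads turned back from them. Deviations of same-numbered libraries of the populations had correlations of 0.371, 0.114 and 0.156 for replicates 1, 2 and 3. Differently numbered libraries reached similar values, with 0.359 for Ly49G+ replicate 3 with Ly49I+ replicate 2. Ly49G+ replicate 2 with Ly49I+ replicate 1 gave 0.115. The labels do not state a pairing, and these values do not establish one. The main fit left the replicate number out, and the block was an alternative. GC content is the length-weighted mean over GENCODE M21 transcripts, and its correction a lowess per library (span 0.3). Alternatives were the block, no trend, a robust prior, library weights, trimmed mean centring (30%), quantile normalization, log2(CPM + 1), a mean of at least 4, and each library left out. Named are Rab genes that passed in either fit, the 3 highest per kilobase in each role, fixed pairs of related genes, and pathway genes past the threshold. Members and lists were chosen with earlier results of these data known.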

Additional observations from a re-analysis of the deposited data

How the results depend on the processing

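For the Rab genes, the count of 0 past the threshold was also 0 without the intensity trend, with trimmed mean centring, quantile normalization, log2(CPM + 1) or a minimum mean of 4. It was 13 with the replicate block and 13, not all of them the same genes, with library weights. It was 1 with the robust prior, 2 with the GC correction and 3 with the replicate block and the GC correction. When single libraries were left out it was 0 to 7, the 7 without Ly49I+ replicate 1. Over all genes the count of 306 became 993 with the replicate block, 1261 with library weights, 518 with the GC correction and 659 with the block and the GC correction, and 94 to 644 when single libraries were left out. For the other Rab cycle genes the count of 3 became 8 with the replicate block, 6 with library weights and 5 with the block and the GC correction, and 1 to 7 when single libraries were left out. Among the single genes named, no called difference changed sign. Why these counts moved was not tested. Leaving out a library also leaves fewer samples, but without Ly49I+ replicate 1 the counts of all these sets were higher than in the main fit. The GC settings were chosen after seeing the data. With 3 libraries per population, the 95% interval of 12 of the 71 Rab genes reached past 1.5-fold, so these libraries do not bound those genes within that fold.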
